A study of Mus musculus with 2 samples.

Results

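Endothelial nuclei of the mouse hippocampus were chosen by their own counts, as the nuclei in which at least 4 of 9 endothelial genes (Flt1, Cldn5, Mecom, Adgrl4, Slco1a4, Pecam1, Ptprb, Cdh5 and Abcb1a) had at least 1 unique molecular identifier (UMI), among barcodes that held 500 genes and 800 UMIs or more and less than 5% of mitochondrial UMIs. They numbered 190 of 25957 nuclei in 2 single-nucleus RNA libraries. The study is about Bcas2, a protein of the Prp19 complex that takes part in splicing, and its loss in the hippocampus. The knockdown-labelled library (KD) came from Bcas2F/F (floxed) mice injected with AAV2/9-Syn-cre, an adeno-associated virus carrying Cre under the synapsin promoter, and its genotype label reads Bcas2 knockdown. The control library came from mice injected with the AAV vehicle. Its title and the design text name the same floxed mice, but its genotype label reads WT. The synapsin promoter is active in neurons, so Cre was not directed at the endothelium. The sources used here give neither the age, sex and number of the mice nor which part of Bcas2 is floxed.

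Brain endothelial cells line the vessels and carry the blood-brain barrier. Tight junctions seal the gaps between them, carriers such as the glucose transporter Slc2a1 bring nutrients across, and efflux pumps such as Abcb1a and Abcg2 return foreign compounds to the blood. Wnt and beta-catenin signalling maintains this barrier state, and the cells differ along the vessel from arterial through capillary to venous, the venous stretch being where leukocytes adhere during inflammation.

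In all, 16693 barcodes with 90594923 UMIs were deposited for the knockdown-labelled library and 12621 barcodes with 41781481 UMIs for the control, where the protocol expected 8000 nuclei per library. After the filters 13429 KD nuclei (median 6094 UMIs) and 12528 control nuclei (median 2577 UMIs) remained. They shared 45 barcodes, 0 of them endothelial. Each group is 1 library, which leaves no spread between animals to test against, and no test was made. Each value below describes these 2 libraries, and its 95% interval covers counting error only.

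The endothelial nuclei were shallow in both libraries, with a median of 2008.5 UMIs (802 to 26442) for the 64 of the knockdown-labelled library, against 1866.5 (1143 to 10241) for the 126 of the control. A few deep nuclei weighed heavily on the sums. The 11 endothelial nuclei above 5000 UMIs in the knockdown-labelled library held 56.1% of its endothelial UMIs, and the 13 such nuclei of the control held 26.4%. RNA of other cell types was found in part of the endothelial nuclei. A nucleus was counted as mixed where the UMIs of any other cell type's marker list exceeded those of the 9 rule markers, which held for 15 of 64 KD nuclei and 29 of 126 control nuclei. The list was the neuronal one in 11 of the 15, and the oligodendrocyte one in 21 of the 29. Mixed nuclei held 58.7% of the endothelial UMIs in KD and 43.6% in the control. Markers of neurons, oligodendrocytes and astrocytes were in the median at 62.0% of their level in all other nuclei in KD endothelial nuclei and at 45.6% in control endothelial nuclei, an estimate of the share of such RNA. This estimate, called free RNA below, was taken over all endothelial nuclei, mixed ones included. Some results with it subtracted are given among the settings at the end, but its part in each ratio was not tested. Medians of gene lists are also given without mixed nuclei. Scrublet marked 6 endothelial nuclei as doublets in KD by its automatic threshold. In the control 24 were marked, but there the top scores at the expected doublet rate were taken. The rules differ, so these counts cannot be compared directly.

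Bcas2, the targeted gene, was measured with 10 UMIs (40.1 CPM, that is, scaled to the total of the library's endothelial UMIs, interval 19.2 to 73.8) in endothelial nuclei of the knockdown-labelled library and 12 UMIs (37.2 CPM, 19.2 to 65.0) in those of the control. The log2 ratio of 0.12 had an interval of -1.26 to 1.45, so a difference was not detectable at this depth. In all other nuclei Bcas2 was at 40.6 CPM in the knockdown-labelled library and 30.7 CPM in the control. The 3′ tags may lie outside the floxed part of the gene, so these values neither check the label nor show whether the gene was recombined.

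The number of rule markers per nucleus defined the endothelial nuclei, so their separation from the rest by this number follows from the rule. Few nuclei lay next to the cut. The knockdown-labelled library had 12606 nuclei with 0 markers and the control 11627, and with 3 markers, just outside the rule, there were 9 nuclei in KD and 6 in the control. Just inside it, with 4 markers, there were 7 in KD and 8 in the control. The most frequent number among endothelial nuclei was 7 markers in both libraries, with 21 nuclei in KD and 36 in the control. All 9 were found in 2 knockdown-labelled nuclei, against 7 in the control.

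**Figure D1:**
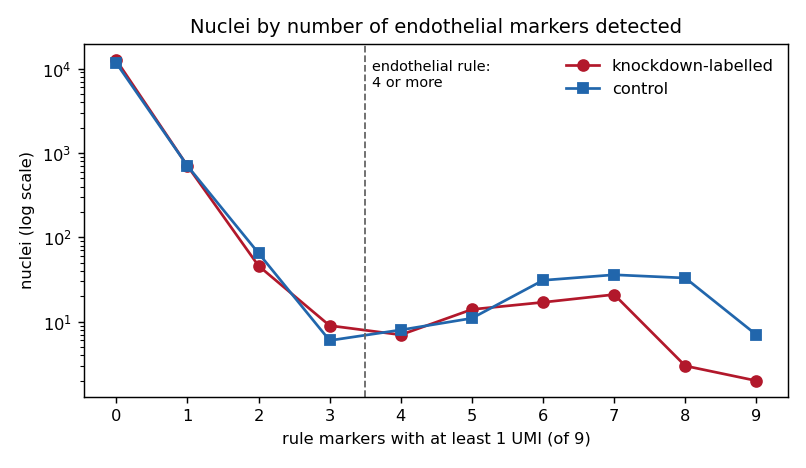
Number of nuclei (log scale) by how many of the 9 rule markers had at least 1 UMI, for the knockdown-labelled library (circles) and the control (squares). Between 0 and 7 markers the count is lowest at 4 in the knockdown-labelled library (7 nuclei) and at 3 in the control (6 nuclei), and at 7 markers there are 21 KD nuclei and 36 control nuclei.

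The rule markers themselves were high in these nuclei by construction, and their levels are given as a description. Flt1, a receptor for VEGF, was at 1517 CPM in endothelial nuclei of the knockdown-labelled library and 4115 CPM in those of the control, and at 1.26 CPM in all other nuclei of KD and 3.89 CPM in those of the control. Slco1a4, an organic anion transporter of the barrier, was at 1397 CPM in KD and 2717 CPM in control nuclei. Adgrl4, an adhesion receptor of vessels, was at 441 CPM in KD and 1472 CPM in control nuclei. Cldn5, the main claudin of the brain endothelial tight junction, was at 429 CPM in KD and 440 CPM in control nuclei, the pair closest to each other among the 9. Cdh5, the endothelial cadherin, was detected in the fewest nuclei, 23 of 64 in KD and 43 of 126 in the control.

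Genes outside the rule are given to describe these nuclei. The 20 shown were picked for their excess, so the excess itself follows from the choice. The 20 genes with the largest excess over all other nuclei in both libraries, out of 2414 candidates, were led by Bmx, a tyrosine kinase of arterial endothelium, Galnt15, Sox17, an endothelial transcription factor, Dipk2b and Tie1, an orphan receptor partnered with the angiopoietin receptor Tek. Tie1 was at 64.2 CPM in endothelial nuclei against 0.068 CPM in other nuclei of KD, and at 161 CPM in endothelial nuclei against 0.314 CPM in other nuclei of the control. Klf2, a transcription factor induced by blood flow, was found in 47 of 64 endothelial nuclei in KD (73.4%) and 95 of 126 in the control (75.4%). It was found in 1.74% of the other nuclei in KD and 1.32% in the control. Ly6c1, a surface protein of mouse endothelium, was found in 70.3% of endothelial nuclei in KD and 53.2% in the control. Among other nuclei it was found in 0.845% in KD and 0.572% in the control, although their median depth of 6110 UMIs in KD and 2582.5 in the control was above that of the endothelial nuclei. Esam, an adhesion molecule of the endothelial junction, was at 205 CPM in KD and 344 CPM in control nuclei, and at 1.02 CPM in the other nuclei of KD and 1.18 CPM in those of the control. Of the lymphatic list (Prox1, Lyve1 and 5 others) 0 genes reached 50 UMIs.

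**Figure D2:**
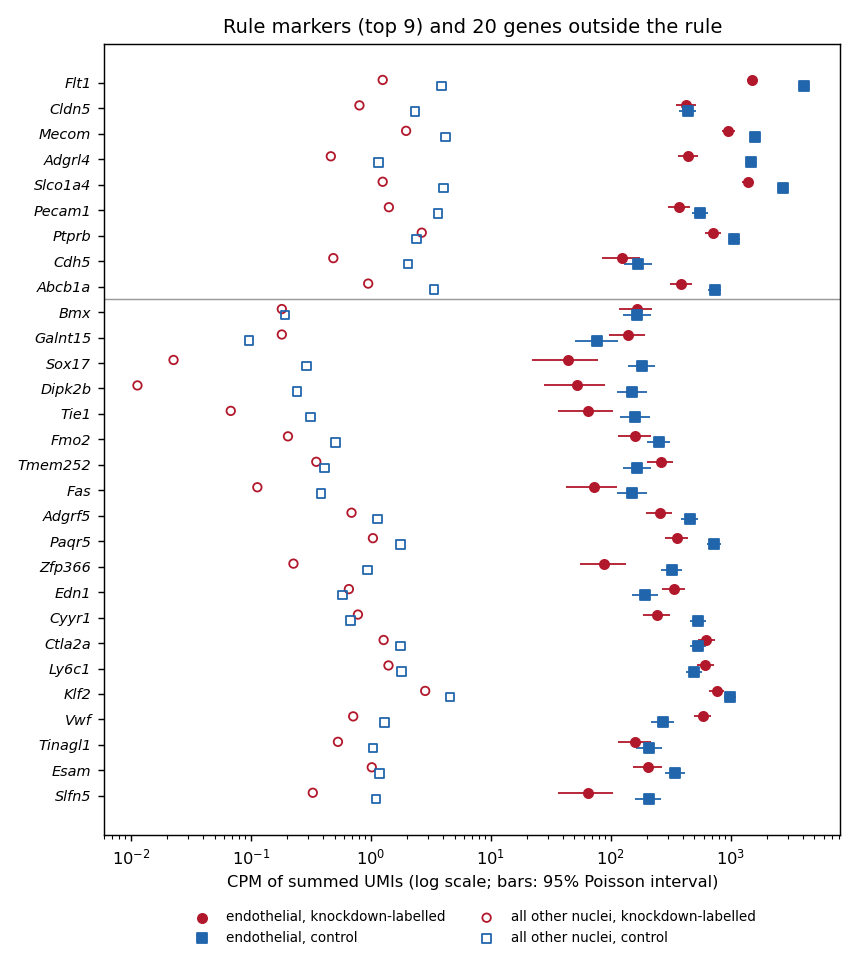
Level in CPM (log scale) of the 9 rule markers, above the line, and the 20 genes outside the rule, below it, in endothelial nuclei (filled, bars for the 95% Poisson interval) and in all other nuclei (open) of the knockdown-labelled library (red circles) and the control (blue squares). Each filled point lies to the right of the open points of its gene, by the choice of genes, as for Tie1 at 64.2 CPM in KD and 161 CPM in control endothelial nuclei.

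Markers of other cell types were present at levels that differed between the libraries. The 11 neuronal markers summed to 4467 CPM in knockdown-labelled endothelial nuclei, against 428 CPM in those of the control, and to 1876 CPM in KD and 390 CPM in control nuclei once mixed nuclei were left out. In all other nuclei they were at 7298 CPM in KD and 1817 CPM in the control. The 9 oligodendrocyte markers ran the other way, at 867 CPM in KD and 6975 CPM in control nuclei, and at 1488 CPM in KD and 3633 CPM in control nuclei without mixed nuclei. Opalin was at 0 UMIs in the knockdown-labelled endothelial nuclei. The 11 pericyte and smooth muscle markers were at 369 CPM in KD and 192 CPM in control nuclei (without mixed nuclei, 321 CPM in KD and 33.0 CPM in the control), with Kcnj8 and Notch3 at 0 UMIs in both libraries. Erythrocyte genes were at 60.2 CPM in KD and 353 CPM in control nuclei.

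Endothelial nuclei made up a smaller share of the knockdown-labelled library. There, 64 of 13429 nuclei were endothelial (0.477%, Clopper-Pearson interval 0.367 to 0.608%), against 126 of 12528 (1.01%, 0.838 to 1.20%) in the control, a ratio of 0.474 (0.345 to 0.645). The control library was shallower, and thinning every nucleus to 1000 UMIs before applying the rule gave 0.323% in KD and 0.809% in the control. Fibroblast-marker nuclei, with at least 4 of 9 fibroblast genes, were also a smaller share, 62 nuclei (0.462%) in KD and 137 nuclei (1.09%) in the control. Pericyte and smooth muscle-marker nuclei, with at least 3 of 11 such genes, numbered 54 in KD (0.402%, 0.302 to 0.524%) and 70 in the control (0.559%, 0.436 to 0.705%), intervals that overlap. Set against these neighbours of the vessel wall, the knockdown-labelled library had 1.19 endothelial nuclei per pericyte or smooth muscle-marker nucleus, against 1.80 in the control (ratio 0.658, 0.403 to 1.08). Per fibroblast-marker nucleus there were 1.03 in KD and 0.920 in the control (ratio 1.12, 0.718 to 1.76). Both intervals include 1, but they cover counting error only, and the values moved with depth. After thinning to 1000 UMIs the log2 ratio per fibroblast-marker nucleus was 1.43, against 0.17 before, and per pericyte or smooth muscle-marker nucleus -1.09, against -0.60 before. The virus given and the preparation of the library both differ between the groups and cannot be told apart.

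Across the 2659 genes with at least 50 UMIs over the endothelial nuclei of both libraries, 353 (13.3%) were at least 2-fold higher and 426 (16%) at least 2-fold lower in the knockdown-labelled library, with 0.5 UMI added to each sum. The median log2 ratio over all of them was -0.19. Most of the higher genes were not enriched in endothelial nuclei: 260 of the 353 were below the level of other nuclei in the knockdown-labelled library. At least 2 times above it were 37. The source of this RNA was not tested. Of the 426 lower genes, 193 were at least 2 times above the other nuclei of the control. Without mixed nuclei, 1067 genes reached 50 UMIs, with 68 higher, 39 of them shared with the full set, and 100 lower, 84 of them shared. List counts given below without mixed nuclei are over the list genes measured in the full set.

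CPM values are shares of a total that includes this RNA of other cells. The 137 genes outside the rule that were at least 10 times above other nuclei in both libraries, a set chosen after the values were seen, had a median log2 ratio of -0.89 (quartiles -1.33 and -0.29), with 4 genes 2-fold higher and 63 lower. Without mixed nuclei the median was -0.44, with 12 higher and 26 lower. Scaled so that this set has a median of 0, the median of all genes moves to 0.70, and 943 genes were 2-fold higher and 97 lower. Values on that scale are given below as relative to endothelial-enriched genes. The set shares genes with many of the lists below, such as 7 of the 20 measured blood-brain barrier transporters. The medians of such lists on that scale are therefore not independent of the set.

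Of the genes at least 2 times above other nuclei of the library with the higher level, the highest ratio was that of A330008L17Rik, with UMIs in only 7 KD nuclei. The next 3, Lcn2, Ackr1 and Lrg1, are known from inflamed venules. Lcn2, which encodes lipocalin-2, an acute-phase protein that binds iron-carrying siderophores, had 197 UMIs (791 CPM) in endothelial nuclei of the knockdown-labelled library and 9 UMIs (27.9 CPM) in those of the control (log2 ratio 4.75, 3.87 to 5.98). It was found in 27 of 64 nuclei in KD (42.2%) and 4 of 126 in the control (3.17%), and among all other nuclei in 0.456% in KD and 0.169% in the control. Ackr1, the atypical chemokine receptor of venules, had 72 UMIs in 19 KD nuclei (289 CPM), against 3 UMIs in 3 control nuclei (9.30 CPM), a log2 ratio of 4.75 (3.35 to 7.27). Among other nuclei Ackr1 was found in 4.46% in KD and 0.693% in the control. Lrg1, which encodes a secreted leucine-rich glycoprotein that modulates TGF-beta signalling in vessels, had 101 UMIs in 25 KD nuclei (405 CPM), against 11 UMIs in 5 control nuclei (34.1 CPM), a log2 ratio of 3.52 (2.67 to 4.62). These genes were detected in many KD nuclei and few control nuclei, and the ratios were as large without mixed nuclei. Then the log2 ratios were 4.90 for Lcn2, 4.86 for Ackr1 and 3.50 for Lrg1. The 3 nuclei with most Lcn2 held 92 of its 197 UMIs in the knockdown-labelled library, and the top nucleus 31.

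Lcn2, Ackr1 and Lrg1 were found in the same nuclei. In the knockdown-labelled library 15 of 64 endothelial nuclei had all of them, 8 had 2, 10 had 1 and 31 had 0. In the control 1 of 126 had all of them, 2 had 2, 5 had 1 and 118 had 0. Nuclei with all of them had a median of 3386 UMIs in the knockdown-labelled library, and nuclei with 0 of them 1723, so depth moved with detection. After thinning to 1000 UMIs, at least 1 of the genes was found in 27 of 62 knockdown-labelled nuclei (43.5%), against 3 of 126 (2.38%) in the control. Among all other nuclei, 0 of 13365 in KD and 0 of 12402 in the control had all of them, which allows shares of up to 0.0224% in KD and 0.0242% in the control. Of the 15 nuclei with all of them in the knockdown-labelled library, 5 were mixed.

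The windows of 250 bases before the starts of Lcn2, Ackr1 and Lrg1 are shown because these genes were detected together. They are RefSeq sequences on build GRCm38.p6, which is not the build of the counts, 5′ to 3′ on the strand of the gene, the minus strand for each. Lcn2 lies at chr2:32387740-32387989, Ackr1 at chr1:173333504-173333753 and Lrg1 at chr17:56121947-56122196. Capitals mark matches to CAGGAAG on either strand, a core bound by ETS factors such as Erg and Fli1.
Lcn2: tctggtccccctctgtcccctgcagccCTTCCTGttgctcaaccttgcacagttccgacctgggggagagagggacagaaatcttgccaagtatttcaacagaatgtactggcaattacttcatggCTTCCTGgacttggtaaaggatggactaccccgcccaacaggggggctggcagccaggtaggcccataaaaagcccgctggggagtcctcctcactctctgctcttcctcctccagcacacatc
Ackr1: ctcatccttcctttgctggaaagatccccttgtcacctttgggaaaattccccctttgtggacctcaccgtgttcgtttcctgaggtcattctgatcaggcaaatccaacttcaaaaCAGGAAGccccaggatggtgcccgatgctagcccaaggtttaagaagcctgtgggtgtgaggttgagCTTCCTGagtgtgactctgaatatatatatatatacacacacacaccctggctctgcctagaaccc
Lrg1: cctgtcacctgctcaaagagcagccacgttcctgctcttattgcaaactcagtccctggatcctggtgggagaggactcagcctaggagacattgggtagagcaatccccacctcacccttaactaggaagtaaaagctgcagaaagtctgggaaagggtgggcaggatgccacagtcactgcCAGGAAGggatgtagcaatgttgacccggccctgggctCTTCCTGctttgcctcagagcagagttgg
Each window held 2 matches, and 10.8% of the 32851 RefSeq windows of this length held at least 1. The share of windows with 2 matches was not counted. GGANTTTCC, an NF-kB motif, and TTCNNNGAA, a STAT motif, had no match on either strand in any of the 3 windows. They occurred in 1.07% and 7.02% of all windows. No match overlapped another. Only these letter patterns were searched, so looser forms of the motifs could be present and would not be marked. A match is a stretch of letters and not a measured binding site.

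Other venous genes went in both directions. Of the 10 measured genes of the venous list, 3 were 2-fold higher (Lcn2, Ackr1 and Vwf) and 2 lower (Vcam1 and Icam1). Of all measured genes 13.3% were higher and 16% lower. Over all of them the median log2 ratio was -0.19, and 0.70 relative to endothelial-enriched genes. The venous list's median log2 ratio was 0.44 (0.78 without mixed nuclei and 1.33 relative to endothelial-enriched genes). The list's values include Lcn2 and Ackr1, already named for their high ratios. Apart from them, Vwf was the only measured gene of the list that was 2-fold higher. Vwf, the von Willebrand factor stored in endothelial granules, had 590 CPM in the knockdown-labelled library and 273 CPM in the control (log2 ratio 1.11, 0.72 to 1.51), and was found in 39 of 64 KD nuclei and 47 of 126 control nuclei. Selp, P-selectin, had 8 UMIs in 5 knockdown-labelled nuclei, against 0 UMIs in the control, which allows up to 9.30 CPM. The adhesion molecules Vcam1 and Icam1 were lower. Vcam1 was at 197 CPM in KD and 400 CPM in control nuclei (log2 ratio -1.01, -1.53 to -0.54, and -0.58 without mixed nuclei) and Icam1 at 56.2 CPM in KD and 189 CPM in control nuclei (log2 ratio -1.71, -2.70 to -0.90), with 14 UMIs in 8 KD nuclei against 61 UMIs in 13 control nuclei. Nr2f2, the transcription factor of venous identity, was at 161 CPM in KD and 121 CPM in control nuclei (log2 ratio 0.41, -0.26 to 1.08). Il1r1, the interleukin-1 receptor, was at 586 CPM in KD and 703 CPM in control nuclei (log2 ratio -0.26, -0.57 to 0.04).

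Lcn2 and Lrg1 were found mostly in nuclei with other venous genes. At least 2 of the 13 listed venous genes other than Lcn2 and Ackr1 were found in 45 of 64 knockdown-labelled nuclei, against 76 of 126 in the control. Lcn2 was found in 25 of these 45 KD nuclei and 4 of these 76 control nuclei. It was found in 2 of the other 19 KD nuclei and 0 of the other 50 control nuclei, a count that allows up to 6%. Lrg1 was found in 25 KD and 5 control nuclei with venous genes, and in 0 nuclei without them in either library, which allows up to 15.8% in KD and 6% in the control. Nuclei with venous genes were deeper, with a median of 2224 UMIs in KD and 1989.5 in the control, than those without, with 1634 in KD and 1702 in the control. Arterial and venous detection overlapped, and 26 of 64 KD nuclei and 23 of 126 control nuclei had at least 2 genes of both lists, so nuclei were not assigned to a vessel segment.

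**Figure D3:**
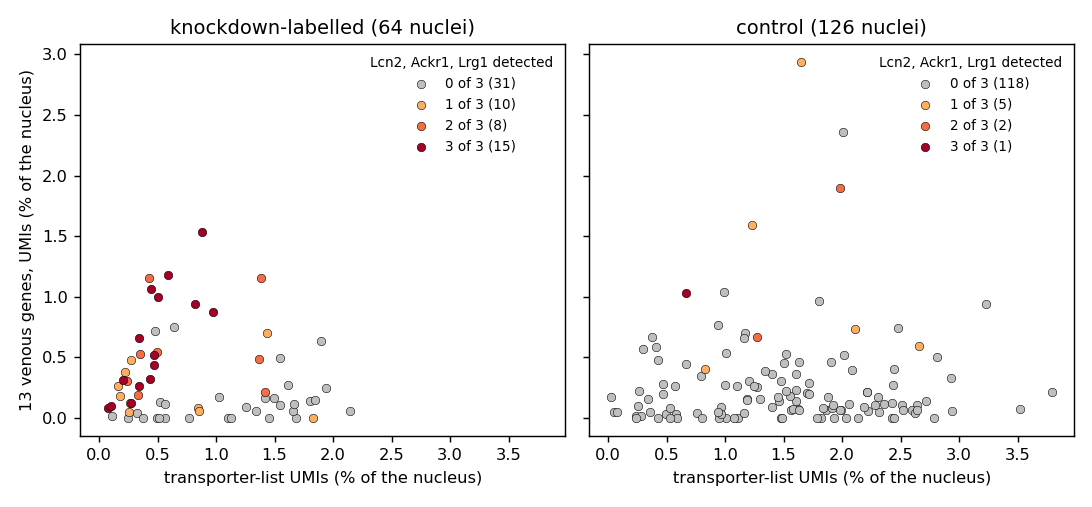
Each point is an endothelial nucleus, with the share of its UMIs on the transporter list (x axis, %) and on 13 venous genes without Lcn2 and Ackr1 (y axis, %), coloured by how many of Lcn2, Ackr1 and Lrg1 had a UMI, in the knockdown-labelled library (left, 64 nuclei) and the control (right, 126 nuclei). The 15 nuclei with all of these genes at left lie below 1.00% on the x axis, and the control panel has 1 such nucleus.

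Arterial genes were sparse. Of 15 listed, 4 reached 50 UMIs, 0 of them 2-fold different, with a median log2 ratio of 0.42, where 13.3% of all measured genes were higher and 16% lower. Without mixed nuclei, where 68 of 1067 genes were higher, 2 of the 4 were 2-fold higher, with a median of 0.95. Relative to endothelial-enriched genes 2 were also higher, with a median of 1.31. On that last scale 943 of all 2659 measured genes were 2-fold higher, with a median of 0.70. Mgp, a matrix protein that inhibits BMP, was at 851 CPM in KD and 437 CPM in control nuclei (log2 ratio 0.96, 0.65 to 1.28), with 129 of its 212 UMIs in 3 nuclei of the knockdown-labelled library. Bmx was at 165 CPM in KD and 167 CPM in control nuclei (log2 ratio -0.02, -0.65 to 0.59). Edn1, the vasoconstrictor endothelin-1, was at 337 CPM in KD and 195 CPM in control nuclei (log2 ratio 0.79, 0.30 to 1.28). Without mixed nuclei the log2 ratios of Bmx and Edn1 were 1.28 and 2.48, and the control then had 24 of its 63 Edn1 UMIs.

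Transporters of the blood-brain barrier were lower in the knockdown-labelled library. Of 26 listed, 20 were measured, with 15 at least 2-fold lower, 0 higher and a median log2 ratio of -1.21, where 16% of all measured genes were 2-fold lower. The share of a nucleus's UMIs on this list had a median of 0.576% (0.0756 to 2.15%) over knockdown-labelled nuclei, against 1.52% (0.0285 to 3.80%) over control nuclei, so the ranges overlap. The size depended on how nuclei were treated. Without mixed nuclei, where 100 of 1067 genes were lower, 9 of the 20 were 2-fold lower, with a median of -0.90. Relative to endothelial-enriched genes 2 were lower and 1 higher, with a median of -0.32. On that last scale 97 of all 2659 measured genes were 2-fold lower and 943 higher, with a median of 0.70.

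Slc2a1, the glucose carrier, was at 1521 CPM in the knockdown-labelled library and 3396 CPM in the control (log2 ratio -1.16, -1.33 to -0.99), and the log2 ratio was -0.69 without mixed nuclei. In nuclei thinned to 1000 UMIs it was found in 79.0% of KD and 80.2% of control nuclei. The largest differences were those of Slc19a3, a thiamine transporter, at 24.1 CPM in KD and 217 CPM in control nuclei (log2 ratio -3.07, -4.67 to -1.98), and Slc22a8, an organic anion transporter, at 36.1 CPM in KD and 195 CPM in control nuclei (log2 ratio -2.37, -3.63 to -1.42). Both were also over 2-fold lower without mixed nuclei, with log2 ratios of -2.19 for Slc19a3 and -1.66 for Slc22a8. Slc7a1, the carrier of cationic amino acids, was at 169 CPM in KD and 598 CPM in control nuclei (log2 ratio -1.81). Slc7a5, the light chain of the large neutral amino acid carrier, was at 257 CPM in KD and 784 CPM in control nuclei (log2 ratio -1.60, -2.03 to -1.21), while its heavy chain Slc3a2, also present in all other nuclei (109 CPM in KD and 101 CPM in the control), was at 345 CPM in KD and 301 CPM in control nuclei (log2 ratio 0.20, -0.24 to 0.63). The efflux pump Abcg2 was at 385 CPM in KD and 1016 CPM in control nuclei (log2 ratio -1.39), and Tfrc, the transferrin receptor, at 104 CPM in KD and 332 CPM in control nuclei (log2 ratio -1.65). Mfsd2a, the lysophospholipid carrier that limits transcytosis, was at 92.3 CPM in KD and 217 CPM in control nuclei (log2 ratio -1.21, and -0.81 without mixed nuclei).

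The CPM of transporters was lower in nuclei with and without venous genes, and so was that of the rule markers. In nuclei with at least 2 venous genes the list summed to 4759 CPM in the knockdown-labelled library and 11714 CPM in the control, and in the others to 7333 CPM in KD and 13527 CPM in the control. The 9 rule markers summed to 6177 CPM in KD and 12233 CPM in the control in nuclei with venous genes, and to 6935 CPM in KD and 14077 CPM in the control in the others. Per UMI of the rule markers, nuclei with venous genes had 0.770 transporter UMIs in KD and 0.958 in the control. The others had 1.06 in KD and 0.961 in the control, the other way round. The rule markers chose these nuclei, so this denominator depends on the selection. These ratios have no interval and are a description only. The capillary list, which includes Car4, a carbonic anhydrase of the capillary surface, and Spock2, a matrix proteoglycan, was also lower in CPM. Of its 5 measured genes 3 were 2-fold lower and 0 higher, where 16% of all measured genes were lower and 13.3% higher. The median log2 ratio was -1.43. Without mixed nuclei it was -0.93 with 2 lower, where 100 of 1067 genes were lower. Relative to endothelial-enriched genes it was -0.54, where the median of all measured genes was 0.70. Spock2 was at 157 CPM in KD and 586 CPM in control nuclei (log2 ratio -1.89, -2.44 to -1.40), and Car4 at 76.3 CPM in KD and 226 CPM in control nuclei (log2 ratio -1.54, -2.38 to -0.83).

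Junction genes were called about as often as all genes, and the sign of their median depended on the scaling. Of 13 measured, 3 were 2-fold lower and 1 higher, where 16% of all measured genes were lower and 13.3% higher. The median log2 ratio was -0.72, against -0.31 without mixed nuclei and 0.16 relative to endothelial-enriched genes. Over all measured genes the median was -0.19 in CPM and 0.70 on that last scale, above the junction median on both. Tjp1, a scaffold of the tight junction, was at 835 CPM in KD and 1531 CPM in control nuclei (log2 ratio -0.87, -1.12 to -0.64). Ocln, occludin, was at 92.3 CPM in KD and 164 CPM in control nuclei (log2 ratio -0.81, -1.60 to -0.10). The junctional adhesion molecule Jam2 was at 48.2 CPM in KD and 146 CPM in control nuclei (log2 ratio -1.55), and Jam3 at 56.2 CPM in KD and 183 CPM in control nuclei (log2 ratio -1.66). Cdh13, T-cadherin, was the higher gene, at 265 CPM in KD and 62.0 CPM in control nuclei (log2 ratio 2.07, 1.36 to 2.90), and was at 236 CPM in the other nuclei of KD and 121 CPM in those of the control.

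Signalling lists had medians below 0 in CPM, and relative to endothelial-enriched genes only the Notch median was below 0. The median of all measured genes was -0.19 in CPM and 0.70 relative to endothelial-enriched genes. The Wnt, Notch and TGF-beta and BMP medians were below it on both scales. The set of endothelial-enriched genes holds 3 of the 10 measured Wnt, 1 of the 5 Notch and 4 of the 10 TGF-beta and BMP genes. Medians near 0 on its scale thus follow in part from the choice of the set. Of all measured genes, 16% were 2-fold lower and 13.3% higher. Of 10 measured Wnt and beta-catenin genes, 5 were 2-fold lower and 0 higher, with a median log2 ratio of -0.75, against -0.51 without mixed nuclei and 0.13 relative to endothelial-enriched genes. Apcdd1, a Wnt inhibitor induced by the pathway, was at 68.2 CPM in KD and 310 CPM in control nuclei (log2 ratio -2.15, -3.02 to -1.43), with a log2 ratio of -1.34 without mixed nuclei. Sox17 was at 44.1 CPM in KD and 183 CPM in control nuclei (log2 ratio -2.00, -3.13 to -1.11). Lef1, a nuclear partner of beta-catenin, was at 482 CPM in KD and 970 CPM in control nuclei (log2 ratio -1.01, -1.33 to -0.70, and -0.47 without mixed nuclei). Of 5 measured Notch genes, 3 were lower, with a median of -1.18. Without mixed nuclei 1 was lower, with a median of -0.80, where 100 of 1067 genes were lower. Notch4 was at 44.1 CPM in KD and 152 CPM in control nuclei (log2 ratio -1.73, and -0.93 without mixed nuclei). Of 10 TGF-beta and BMP genes, 5 were lower, with a median of -0.74, against 0.15 relative to endothelial-enriched genes and, without mixed nuclei, -0.29 over the same genes and 0.062 over those that still had 50 UMIs. Eng, the co-receptor endoglin, was at 281 CPM in KD and 617 CPM in control nuclei (log2 ratio -1.13, -1.55 to -0.73, and -0.53 without mixed nuclei), and Id1, a target of BMP signalling, at 437 CPM in KD and 425 CPM in control nuclei (log2 ratio 0.04, -0.33 to 0.42).

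Kdr, the main VEGF receptor, was among the lowest genes. It was at 28.1 CPM (7 UMIs in 7 nuclei) in the knockdown-labelled library, against 152 CPM (49 UMIs in 39 nuclei) in control nuclei (log2 ratio -2.35, -3.82 to -1.28). Nrp1, its co-receptor, was at 197 CPM in KD and 198 CPM in control nuclei (log2 ratio -0.01, -0.58 to 0.55). The list of VEGF, angiopoietin and semaphorin receptors had 2 of 6 genes lower and 0 higher, where 16% of all measured genes were lower and 13.3% higher. The list's median was -0.48, against -0.16 without mixed nuclei and 0.41 relative to endothelial-enriched genes. Over all measured genes the median was -0.19 in CPM and 0.70 on that last scale. Nostrin, which traffics endothelial nitric oxide synthase, was at 221 CPM in KD and 920 CPM in control nuclei (log2 ratio -2.05, -2.50 to -1.64), and the synthase Nos3 itself at 181 CPM in KD and 288 CPM in control nuclei (log2 ratio -0.67, -1.22 to -0.15). Pltp, the phospholipid transfer protein, was at 120 CPM in KD and 675 CPM in control nuclei (log2 ratio -2.47, -3.09 to -1.93), and Adgre5, the adhesion receptor CD97, at 48.2 CPM in KD and 375 CPM in control nuclei (log2 ratio -2.91, -3.95 to -2.10). These stayed over 2-fold lower without mixed nuclei, at -2.06 for Kdr, -1.64 for Nostrin, -2.23 for Pltp and -2.20 for Adgre5.

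**Figure D4:**
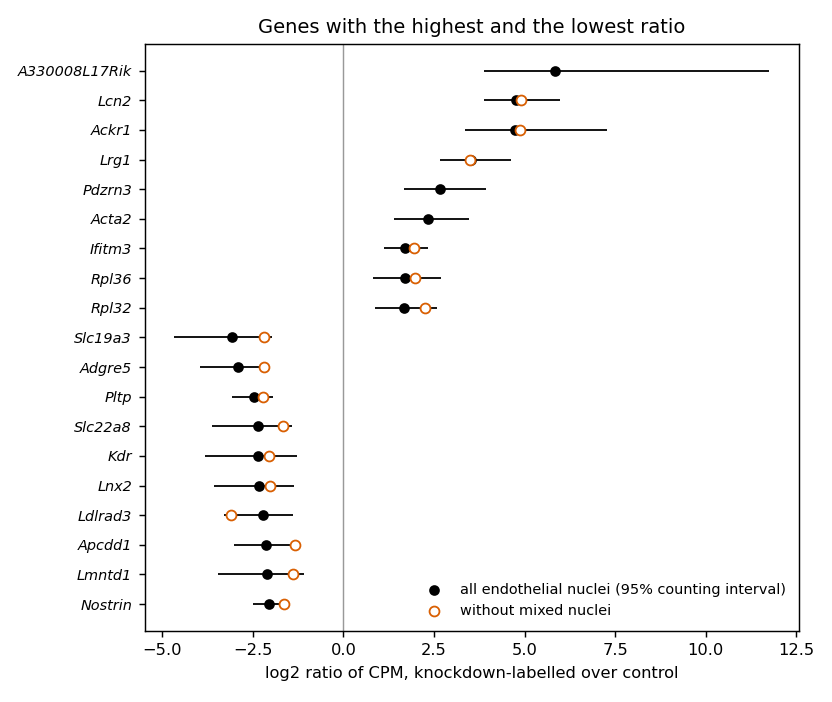
Log2 ratio of CPM, knockdown-labelled over control, for 9 of the 10 genes with the highest ratio and the 10 with the lowest ratio among genes at least 2 times above other nuclei of the library with the higher level (filled, with 95% counting interval), and without mixed nuclei (open, not drawn where the control then had 0 UMIs). Lcn2 and Ackr1 lie at 4.75 with and near 4.9 without mixed nuclei, and Slc19a3 at -3.07 and -2.19.

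Several of the named genes rest on few nuclei or are shared with other cells. A330008L17Rik had 66 UMIs in 7 nuclei of the knockdown-labelled library, 57 of them in 3 nuclei, and 1 UMI in the control (log2 ratio 5.84, 3.89 to 11.74). It was found in 29.9% of other nuclei of the knockdown-labelled library. Acta2, smooth muscle actin, had 44 UMIs in 9 knockdown-labelled nuclei, against 11 UMIs in 1 control nucleus (log2 ratio 2.33). Pdzrn3, a ubiquitin ligase, had 46 UMIs in 11 KD nuclei and 9 UMIs in 4 control nuclei (log2 ratio 2.66). Outside mixed nuclei it had 5 UMIs in KD and 0 in the control. Among the lower genes, Lnx2, Ldlrad3 and Lmntd1 had log2 ratios of -2.32, -2.22 and -2.11.

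Endothelial transcription factors had 1 of 18 measured genes 2-fold higher and 3 lower, where 13.3% of all measured genes were higher and 16% lower, so the share of lower genes was near that of all genes. Their median log2 ratio was -0.57, against -0.18 without mixed nuclei and 0.31 relative to endothelial-enriched genes. Over all measured genes the median was -0.19 in CPM and 0.70 on that last scale. Erg, an ETS factor that maintains endothelial identity, was at 124 CPM in KD and 226 CPM in control nuclei (log2 ratio -0.85, -1.52 to -0.24). Epas1, the hypoxia-inducible factor of endothelium, was at 185 CPM in KD and 443 CPM in control nuclei (log2 ratio -1.25, and -0.82 without mixed nuclei), and Zfp366 at 88.3 CPM in KD and 322 CPM in control nuclei (log2 ratio -1.84). The higher gene, Sox5, was at 277 CPM in KD and 43.4 CPM in control nuclei (log2 ratio 2.63). In other nuclei it was at 277 CPM in KD and 156 CPM in the control, so it was not enriched in endothelial nuclei. Only 3 of its 69 KD UMIs and 1 of its 14 control UMIs lay outside mixed nuclei. Mef2c was at 554 CPM in KD and 294 CPM in control nuclei (log2 ratio 0.91), and its log2 ratio was -0.10 without mixed nuclei.

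Some antigen presentation and interferon-inducible genes were higher. Of 24 listed, 9 were measured, with 3 higher and 1 lower, where 13.3% of all measured genes were higher and 16% lower. The median log2 ratio was 0.48. Without mixed nuclei it was 0.82 with 4 higher, where 68 of 1067 genes were higher. Relative to endothelial-enriched genes it was 1.36, with 6 higher. On that last scale 943 of all 2659 measured genes were 2-fold higher, with a median of 0.70. B2m, the shared light chain of MHC class I, was at 373 CPM in the knockdown-labelled library and 136 CPM in the control (log2 ratio 1.44, 0.92 to 2.00). H2-K1 was at 514 CPM in KD and 208 CPM in control nuclei (log2 ratio 1.30, 0.87 to 1.76) and H2-D1 at 759 CPM in KD and 418 CPM in control nuclei (log2 ratio 0.86, 0.53 to 1.19). These class I genes are similar in sequence, and reads could be split between them. Ifitm3, a membrane protein that restricts viral entry, was at 333 CPM in KD and 102 CPM in control nuclei (log2 ratio 1.69, 1.11 to 2.33), found in 21 of 64 KD nuclei and 20 of 126 control nuclei. In all other nuclei B2m and Ifitm3 had lower levels in KD, B2m at 5.95 CPM in KD and 13.8 CPM in the control, and Ifitm3 at 1.03 CPM in KD and 2.10 CPM in the control. Not every gene of the list followed. Ifi27 was at 60.2 CPM in KD and 136 CPM in control nuclei (log2 ratio -1.15, and -0.66 without mixed nuclei), and the transcription factor Irf7 and the induced genes Ifit1 and Ifit3 had 2 to 10 UMIs in either library. In nuclei with at least 2 venous genes the list summed to 4429 CPM in KD and 2929 CPM in the control, and in those with fewer to 1919 CPM in KD and 2185 CPM in the control.

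Ribosomal protein genes were higher as a list. Of 31 measured, 8 were 2-fold higher and 0 lower, with a median log2 ratio of 0.76 (0.98 without mixed nuclei), where 13.3% of all measured genes were 2-fold higher. Relative to endothelial-enriched genes 29 of the 31 were 2-fold higher, with a median of 1.65. On that scale 943 of all 2659 measured genes were 2-fold higher, with a median of 0.70. Rpl36, which is outside the list, was at 153 CPM in KD and 46.5 CPM in control nuclei (log2 ratio 1.69, 0.82 to 2.68), and Rpl32, a member of it, at 181 CPM in KD and 55.8 CPM in control nuclei (log2 ratio 1.67, 0.88 to 2.57). The list summed to 6779 CPM in knockdown-labelled endothelial nuclei and 3923 CPM in those of the control, beside 1423 CPM in other nuclei of KD and 1781 CPM in other nuclei of the control. Within nuclei with at least 2 venous genes it was at 8096 CPM in KD and 4547 CPM in control nuclei, and in those with fewer at 2155 CPM in KD and 2788 CPM in control nuclei. Ribosomal protein genes have many processed pseudogenes, which can share reads with them. Of 8 measured genes of oxidative phosphorylation, 2 were higher and 0 lower (median 0.71). Without mixed nuclei, where 68 of 1067 genes were higher, 4 were higher (median 0.94). Relative to endothelial-enriched genes 7 were higher (median 1.60). Atp5a1 was at 157 CPM in KD and 58.9 CPM in control nuclei (log2 ratio 1.39). Ndufa4 was at 128 CPM in KD and 55.8 CPM in control nuclei (log2 ratio 1.19). The mitochondrial share of UMIs differed in the same direction, with a median of 0.246% in KD and 0.0864% in control endothelial nuclei, and its part in these results was not tested.

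Immediate early genes had 4 of 6 measured members 2-fold lower and 0 higher, with a median log2 ratio of -1.27, where 16% of all measured genes were lower. Jun was at 68.2 CPM in KD and 186 CPM in control nuclei (log2 ratio -1.42, -2.32 to -0.65) and Dusp1, a phosphatase of MAP kinases, at 108 CPM in KD and 288 CPM in control nuclei (log2 ratio -1.39, -2.09 to -0.78), while Junb was at 161 CPM in KD and 158 CPM in control nuclei (log2 ratio 0.03). Without mixed nuclei 0 of the 6 were 2-fold lower, with a median of -0.59, where 100 of 1067 genes were lower. Of 7 measured genes of the Prp19 complex and spliceosome core, 0 were 2-fold different in CPM (median log2 ratio 0.24). Without mixed nuclei 0 of the 7 were 2-fold higher and 1 was lower, with a median of 0.32. Of the 1067 genes there, 68 were higher and 100 lower. Relative to endothelial-enriched genes 6 of the 7 were 2-fold higher, with a median of 1.12. On that scale 943 of all 2659 measured genes were 2-fold higher, with a median of 0.70. Snrnp70 was at 859 CPM in KD and 638 CPM in control nuclei (log2 ratio 0.43, 0.15 to 0.71).

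**Figure D5:**
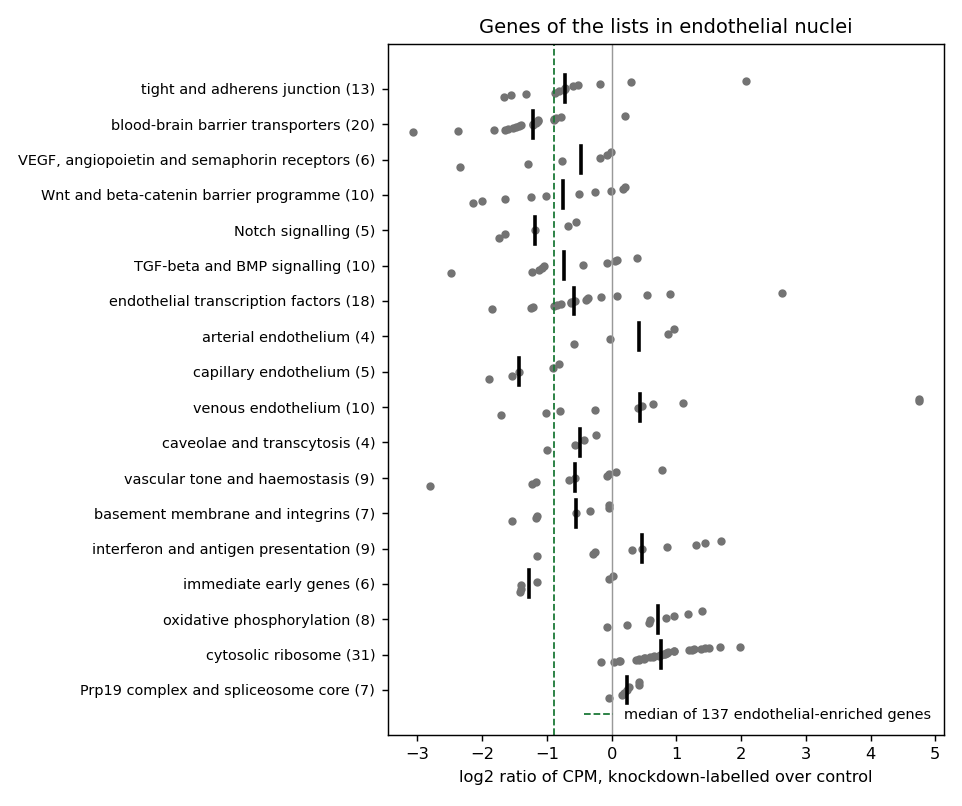
Log2 ratio of CPM, knockdown-labelled over control, for each measured gene of the lists with at least 3 measured genes (points, number of genes in parentheses), with the list's median (bar), a grey line at 0 and a dashed line at -0.89, the median of the 137 endothelial-enriched genes. Lcn2 and Ackr1 stand apart at 4.75 on the venous row, and the transporter and capillary medians of -1.21 and -1.43 lie left of the dashed line.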

How the data were processed

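Dounced nuclei were sorted after propidium iodide staining and run on the 10x Genomics 3' V3 kit, per the labels' protocols. The authors deposited raw UMI counts per gene (55357 genes) and barcode, which per the file headers came from Cell Ranger 9.0.1. The submitters' processing notes list GRCm39, bcl2fastq 5.0.1 and Seurat 4.1.0. The sources used here do not say whether intronic reads were counted.

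UMIs were summed over endothelial nuclei per library and scaled to their total, with exact Poisson, Clopper-Pearson and conditional binomial 95% intervals (scipy 1.17.1, numpy 2.4.6 and pandas 2.3.3 in Python 3.11.15, and edgeR 4.0.16 in R 4.3.3 for a scaling factor only). Doublets were marked with Scrublet (scanpy 1.11.5) at 0.8% per 1000 barcodes and kept. Its automatic threshold marked 8.28% of nuclei in the knockdown-labelled library. In the control, where it marked 0.016%, the top scores at the expected rate were taken. Named genes were the rule markers, Bcas2, members of 20 lists and the 10 highest and 10 lowest ratios among genes with 50 UMIs, which in the library with the higher level were found in 10% of endothelial nuclei and at 2 times the level of other nuclei. The endothelial rule, the lists and these choices were made with earlier results of these data known. The calculation of ratios and intervals was tested on simulated independent Poisson counts per library. These leave out the clustering of UMIs in single nuclei, so the intervals were not checked against it. Some genes that these choices name are not reported here.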

Additional observations from a re-analysis of the deposited data

How the results depend on the processing

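No paired analysis was possible because each group is 1 library. Depth limits genes near 50 UMIs most. No named gene at least 2-fold different changed direction under any setting run. The share of endothelial nuclei stayed between 0.323% and 0.544% in the knockdown-labelled library and between 0.774% and 1.05% in the control over the settings tried. Endothelial nuclei per fibroblast-marker nucleus had a log2 ratio of 1.43 after thinning to 1000 UMIs. Where values below differ, the cause was not tested, except that fewer nuclei, fewer UMIs or a higher minimum leave fewer genes tested.

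Genes 2-fold higher and lower numbered 209 and 227 without Scrublet-marked nuclei, 68 and 100 without mixed nuclei, 42 and 98 after thinning, 126 and 190 with free RNA subtracted, 941 and 851 with a minimum of 20 UMIs, and 158 and 199 with a minimum of 100. Among settings chosen after seeing the data, they numbered 85 and 133 without nuclei above 5000 UMIs, 57 and 104 without Scrublet-marked and mixed nuclei, and 943 and 97 relative to endothelial-enriched genes.

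The transporter median was -0.97 without mixed nuclei (genes still at 50 UMIs), -0.64 thinned, -0.89 as a mean of CPM over nuclei, -0.96 with free RNA subtracted, -0.81 without nuclei above 5000 UMIs, -1.06 without Scrublet-marked and mixed nuclei, and -0.32 relative to endothelial-enriched genes. The TGF-beta and BMP median was 0.062 without mixed nuclei. The immediate early median was -1.43 with a stricter filter on nuclei. As a mean of CPM over nuclei, the arterial median was 1.07 and the ribosomal 1.05. With free RNA subtracted, the ribosomal median was 1.33 and that of caveolae -0.093. Without nuclei above 5000 UMIs, the junction median was -0.16 and the capillary -0.78. The median of all measured genes was 0.70 relative to endothelial-enriched genes, against -0.19 in CPM. Relative to endothelial-enriched genes, medians were 0.16 for junctions, 0.13 for Wnt, 0.15 for TGF-beta and BMP, 0.41 for VEGF and related receptors, -0.30 for Notch, 0.31 for transcription factors, 1.31 for arterial, -0.54 for capillary, 0.39 for caveolae, 0.32 for tone and haemostasis, 0.34 for basement membrane, 1.60 for oxidative phosphorylation, 1.65 for ribosome and 1.12 for Prp19 genes.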

Other observations

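Vessel tone and matrix genes were also measured. Of 9 measured genes of vascular tone and haemostasis, 3 were 2-fold lower and 0 higher, where 16% of all measured genes were lower. Their median log2 ratio was -0.56, against -0.15 without mixed nuclei and 0.32 relative to endothelial-enriched genes. Over all measured genes the median was -0.19 in CPM and 0.70 on that last scale. S1pr1, a sphingosine-1-phosphate receptor that stabilises junctions, was at 209 CPM in the knockdown-labelled library and 493 CPM in the control (log2 ratio -1.23, -1.72 to -0.78, and -0.62 without mixed nuclei). Piezo1, a channel opened by membrane stretch and flow, was at 132 CPM in KD and 301 CPM in control nuclei (log2 ratio -1.17, -1.80 to -0.60, and -0.70 without mixed nuclei). Enpp2, autotaxin, was at 80.3 CPM in KD and 573 CPM in control nuclei (log2 ratio -2.80), and at 124 CPM in the other nuclei of KD and 962 CPM in those of the control. Ramp2, the partner of the adrenomedullin receptor Calcrl, was at 385 CPM in KD and 369 CPM in control nuclei (log2 ratio 0.06, -0.34 to 0.46). Of 7 measured basement membrane and integrin genes, 0 were higher and 3 lower. The collagen Col4a2 was at 193 CPM in KD and 198 CPM in control nuclei (log2 ratio -0.04, -0.61 to 0.52), and the integrins Itga1 and Itga6 had log2 ratios of -1.15 and -1.16, and of -0.36 and -0.66 without mixed nuclei. Of 4 measured genes of caveolae and transcytosis, 0 were higher and 1 was lower, Dnm2, at 148 CPM in KD and 301 CPM in control nuclei (log2 ratio -1.01, and -0.61 without mixed nuclei).

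In the knockdown-labelled library Xist was detected in 30 of 64 endothelial nuclei, against 47 of 126 in the control, and Y-linked genes in 21 nuclei in KD and 42 in the control. Both were detected in 10 nuclei in KD and 11 in the control.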
